A study of Danio rerio with 33 samples.

Results

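The comparison described here set the ovary of adult kctd15 mutant zebrafish against the ovary of adult wild-type zebrafish, with 3 libraries in each group. These 6 libraries, taken from the labels' genotype, age and tissue, were 6 of 33 in the series. It also holds the testis of mutant and wild-type adults, and embryos at 10 somites. The embryos were mutant, wild-type, or wild-type injected with AP2, AP2-P59, kctd15 or combinations of them. All libraries were made from polyadenylated RNA of whole tissue or whole embryos, and the labels describe 3 biological replicates per group. The labels name neither which of the kctd15 gene pair is mutated nor the allele, and whether each ovary library came from 1 fish or from a pool is not given in the sources used here.

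Kctd15 is a BTB-domain protein best known as an inhibitor of neural crest formation in the embryo, and it binds the activation domain of AP2 transcription factors and blocks their activity. Zebrafish carry a gene pair, kctd15a and kctd15b. The adult zebrafish ovary holds follicles of every stage side by side: oocytes, which store maternal RNA and make the egg coat, lie inside layers of granulosa and theca cells that make steroid hormones, and the yolk protein vitellogenin is made in the liver and taken up from blood. In a bulk sample fewer cells of a type and less RNA per cell cannot be told apart.

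The ovary libraries held 15295665 to 24131756 estimated counts. Levels are given in CPM (reads of a gene as a share of the library, on the usual scale) after scaling by trimmed mean of M values (TMM), and they are compared only between libraries, since CPM is not per length. The libraries had the transcripts of their labelled tissue. The 14 egg coat genes summed to 30100 to 43600 CPM in mutant ovary and 31400 to 39500 CPM in wild-type ovary, against 22.5 to 27.8 CPM in mutant testis and 19.9 to 42.3 CPM in wild-type testis. Sperm genes went the other way, with 132 to 175 CPM in mutant ovary and 81.7 to 114 CPM in wild-type ovary, against 4380 to 5020 CPM in mutant testis and 4540 to 4800 CPM in wild-type testis.

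Mutant ovary replicate 3 stood apart from the other ovaries. Its correlations with them were 0.928 to 0.936 over log2(CPM + 0.5), where every other pair had 0.958 to 0.978. Transcripts of the 7 vitellogenin genes made up 12.8% of that library, against 0.00188% and 0.000293% in mutant replicates 1 and 2 and 0.329%, 0.0499% and 0.00128% in the wild-type ovaries. Hepatocyte genes took 1.14% of it and exocrine pancreas genes 0.653%, where no other ovary exceeded 0.0499% and 0.0548%. The liver fatty acid binding protein gene fabp10a had 0, 0.122 and 1363 CPM in the mutant ovaries and 44.3, 2.27 and 0.407 CPM in the wild-type ovaries, so wild-type replicate 1 also held some of this liver transcript. The trypsin gene prss59.1 had 0.708, 132 and 1677 CPM in the mutant ovaries and 3.68, 1.31 and 99.8 CPM in the wild-type ovaries. A total of 98 genes had at least 100 CPM in mutant replicate 3 and more than 10 times the highest other ovary. Of these, 49 were in the hepatocyte, pancreas, intestine and vitellogenin lists, and the 98 together made up 15.2% of the library. Tests of the ovary comparison are therefore given with and without this replicate for the genes described below.

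**Figure D1:**
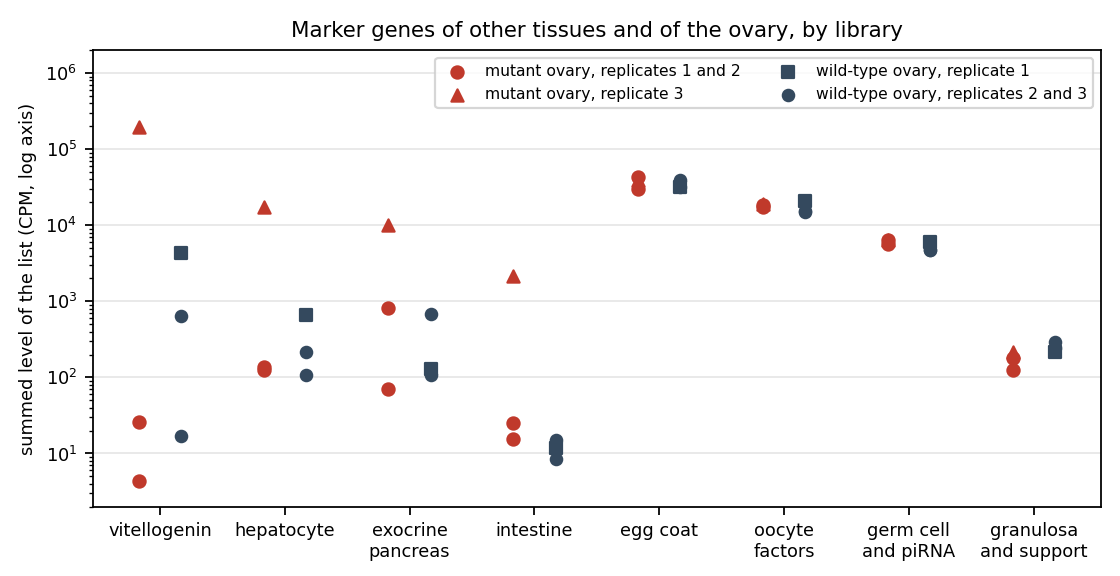
Summed CPM (log axis) of gene lists in each ovary library, mutant ovaries left of wild-type ovaries within each list. Mutant replicate 3 (triangle) reaches 198000 CPM of vitellogenin and 17600 CPM of hepatocyte genes, while the egg coat, oocyte and germ cell lists lie at like levels in all 6 libraries.

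The kctd15 genes were at low levels in every ovary. For kctd15b the mutant ovaries had 12, 5 and 6 estimated counts and the wild-type ovaries 72.7, 28 and 37, or 1.06, 0.306 and 0.458 CPM in mutant ovary and 4.98, 2.05 and 3.01 CPM in wild-type ovary. The groups did not overlap, but kctd15b was not called: its log2 difference was -2.48 ± 0.66 (SE) with an adjusted p of 0.128 in edgeR's quasi-likelihood test with Benjamini-Hochberg adjustment, and -2.33 with an adjusted p of 0.228 without mutant replicate 3. For kctd15a the counts were 3.3, 3.4 and 3.3 in mutant ovary and 0.9, 3.3 and 0 in wild-type ovary, too few to compare. In testis kctd15a was better counted, with 93, 99.3 and 115.2 counts in mutants and 52.2, 42.1 and 88.4 in wild types. Testis counts of kctd15b overlapped between the genotypes, at 24, 18 and 11 in mutants and 43.9, 12 and 21 in wild types. With the allele not named, neither level checks the genotype.

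Among the genes for AP2 factors, the transcription factors that Kctd15 binds, tfap2a fell in mutant ovary. It had 3.63, 5.88 and 9.47 CPM in the mutant ovaries and 39.7, 31.4 and 24.7 CPM in the wild-type ovaries, with every mutant ovary below every wild-type ovary. The log2 difference was -2.33 ± 0.38 (SE; edgeR, adjusted p = 0.0192) with all libraries and -2.75 ± 0.38 (adjusted p = 0.0141) without mutant replicate 3. The 6 ovaries held 40.6, 96 and 123.7 counts of tfap2a in mutants against 582.2, 429 and 303.4 in wild types. A single transcript accounted for most of them, with 39, 75 and 119 counts in mutants and 561, 413 and 292 in wild types. The call was lost when mutant replicate 2 (adjusted p = 0.0568), wild-type replicate 1 (0.0519) or wild-type replicate 2 (0.0665) was left out of the 12 libraries. It was also lost in fits of the ovaries alone and in fits with a block for replicate number, with and without mutant replicate 3. The gene tfap2a was 1 of 5 AP2 genes tested, where 0.553% of all genes were called with 12 libraries and 0.484% without mutant replicate 3.

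The other AP2 genes did not pass the test. The nearest was tfap2c, a gene also active in germ cells of other vertebrates, with 5.58, 4.29 and 11.7 CPM in mutant ovary and 14.7, 9.79 and 6.59 CPM in wild-type ovary (log2 -0.53, edgeR adjusted p = 0.56 with 12 libraries, and -1.08, adjusted p = 0.201 without mutant replicate 3), and the groups overlapped. For tfap2e the values were 9.03, 4.16 and 1.91 CPM in mutant ovary and 1.98, 2.7 and 1.55 CPM in wild-type ovary. Both tfap2b and tfap2d also overlapped between the genotypes. Of 20 KCTD family genes tested, the BTB-domain relatives of kctd15, none was called in either fit, with a median log2 of -0.08 with 12 libraries and -0.13 without mutant replicate 3, beside 0.05 and 0 over all genes.

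**Figure D2:**
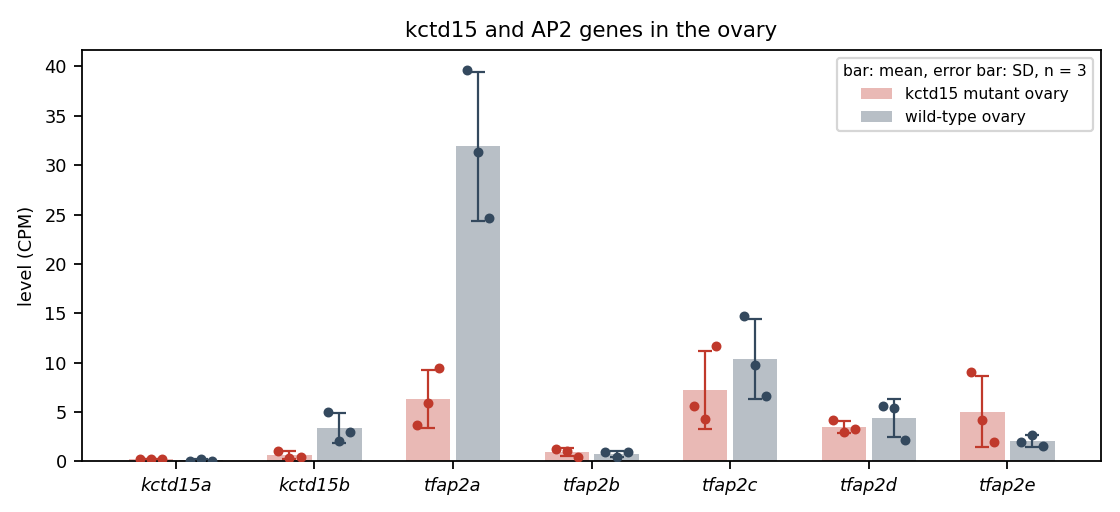
Levels of the kctd15 and AP2 genes in mutant and wild-type ovaries (CPM; points are libraries, bars the mean, error bars the SD of 3 libraries). The mutant ovaries lie below every wild-type ovary for kctd15b and tfap2a, and the other genes overlap between the groups or are near 0.

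The comparison across all genes used 1 fit over the 12 gonad libraries in their 4 groups. It tested 25870 genes and called 143 at an adjusted p under 0.05, which is 0.553% of those tested. Of these, 90 were higher (0.348%) and 53 lower (0.205%) in mutant ovary. Without mutant replicate 3, 128 of 26460 genes were called, or 0.484%, with 83 higher (0.314%) and 45 lower (0.17%). In all, 91 genes were called in both fits, which is 0.352% of the genes tested in both, with 64 higher (0.247%) and 27 lower (0.104%). The fits share 11 libraries, so a call in both is not an independent repeat. None of the 52 genes called with 12 libraries alone belonged to the hepatocyte, pancreas, intestine or vitellogenin lists, and another 37 were called without mutant replicate 3 alone. For all 91 genes the 3 mutant ovaries lay wholly above or wholly below the 3 wild-type ovaries, as did 15.3% of all genes tested (8.16% above and 7.16% below).

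The number of calls depended on which wild-type ovaries entered. Without wild-type replicate 2 the 12-library count was 33 and without wild-type replicate 3 it was 78, while leaving out any other ovary gave 105 to 142. In a fit of the ovaries alone, with 4 residual degrees of freedom, 23 genes were called. Mutant replicate 3 set the direction of many genes. All 38 hepatocyte genes and all 7 vitellogenin genes were above 0 on the log2 scale with it, while 33 and 7 of them were below 0 without it, and none was called in either fit. Some genes were called in the fit without it and had the opposite sign in the fit with it. The cytochrome b5 reductase gene cyb5r2 had 0.0885, 0.122 and 14.3 CPM in mutant ovary and 1.77, 2.05 and 2.85 CPM in wild-type ovary, which gave a log2 of 1.13 (edgeR adjusted p = 0.731) with all libraries and -4.29 (adjusted p = 0.0207) without that replicate. The gene onecutl had 0, 0 and 3.21 CPM in mutant ovary and 0.614, 0.365 and 0.326 CPM in wild-type ovary, with log2 1.27 (adjusted p = 0.679) with all libraries and -6.07 (adjusted p = 0.0328) without that replicate. Both genes were chosen after their values were seen.

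**Figure D3:**
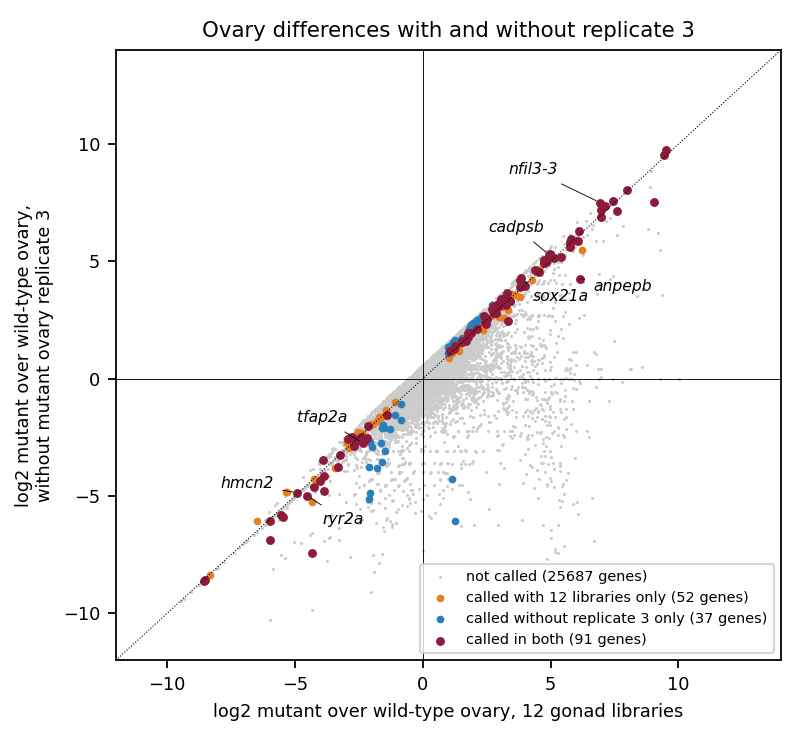
Each point is a gene, with its log2 mutant over wild-type ovary in the fit of 12 gonad libraries (x axis) and without mutant ovary replicate 3 (y axis). The 91 genes called in both lie near the diagonal, while many uncalled genes are well above 0 only when replicate 3 is included.

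Genes with the largest rises included a pair of transcription factor genes. The SoxB2 factor gene sox21a had 106, 69.4 and 24.1 CPM in mutant ovary and 7.7, 2.92 and 3.5 CPM in wild-type ovary, with no overlap and with mutant replicate 3 the lowest mutant. It rose by log2 3.82 ± 0.53 (SE; edgeR, adjusted p = 0.0111), and by 4.21 ± 0.41 (adjusted p = 0.00115) without mutant replicate 3. The basic leucine zipper factor gene nfil3-3 had 17, 30.1 and 0.382 CPM in mutant ovary and 0.136, 0.146 and 0.0814 CPM in wild-type ovary. Mutant replicates 1 and 2 stood far above the wild types, and mutant replicate 3 was close to them. The wild types were near 0, so the fold of this gene rests on few wild-type counts. The rise of nfil3-3 was log2 6.94 ± 1.21 (adjusted p = 0.0276) and 7.50 ± 0.48 (adjusted p = 6.45e-05) without mutant replicate 3. The sox21a call was lost without wild-type replicate 2 (adjusted p = 0.0555), and in fits of the ovaries alone with and without mutant replicate 3. The nfil3-3 call was lost without mutant replicate 2 (0.0562) and without wild-type replicates 1, 2 or 3 (0.0765, 0.121 and 0.104). It was also lost in the 12 libraries with limma-trend, another test.

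Rises were also called in cadpsb, fer1l6, anxa6, layna and dnm3a. The gene cadpsb, for a protein that primes dense-core vesicles for secretion, had 11.9, 11.6 and 4.58 CPM in mutant ovary and 0.204, 0.439 and 0.244 CPM in wild-type ovary. Its rise was log2 4.95 ± 0.49 (edgeR, adjusted p = 0.000774) and 5.27 (adjusted p = 0.000158) without mutant replicate 3, and it was called under all 29 alternatives, with a highest adjusted p of 0.0458. The ferlin family gene fer1l6 had 4.96, 7.96 and 9.7 CPM in mutant ovary and 0.204, 0.0731 and 0.244 CPM in wild-type ovary, a rise of log2 5.39 and of 5.17 without mutant replicate 3 (adjusted p = 0.00374 and 0.00635). The wild types were near 0 for both genes and for layna, given below, so the folds of all 3 rest on few wild-type counts. The annexin gene anxa6, for a calcium-dependent phospholipid-binding protein, had 28.2, 59.6 and 53.6 CPM in mutant ovary and 6.2, 2.48 and 4.56 CPM in wild-type ovary (log2 3.41 and 3.30, adjusted p = 0.00637 and 0.014). For layna, whose mammalian counterpart layilin is a hyaluronan receptor, the levels were 7.43, 4.35 and 4.96 CPM in mutant ovary and 0.204, 0 and 0.0814 CPM in wild-type ovary (log2 5.74 and 5.81, adjusted p = 0.00556 and 0.00635). All 4 of these genes kept their calls when any single ovary was left out of the 12 libraries. In a fit of the ovaries alone layna lost its call, and without mutant replicate 3 such a fit also lost fer1l6 and anxa6. A block for replicate number ended the calls of layna, fer1l6 and anxa6 as well when mutant replicate 3 was left out. The dynamin gene dnm3a, for a GTPase of vesicle scission, had 33, 17.8 and 10.5 CPM in mutant ovary and 1.43, 4.68 and 2.85 CPM in wild-type ovary (log2 2.77 and 3.09, adjusted p = 0.0392 and 0.0228). Its call was the least secure of the 5, being lost without mutant replicates 1 or 2 (0.069 and 0.057) and without wild-type replicates 1, 2 or 3 (0.0793, 0.0665 and 0.125).

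The genes cd28 and cd209, for immune cell surface proteins, rose. The T-cell costimulatory receptor gene cd28 had 33.5, 56.6 and 56.4 CPM in mutant ovary and 6.82, 3 and 3.75 CPM in wild-type ovary, a rise of log2 3.43 ± 0.43 (edgeR, adjusted p = 0.00706) and 3.31 (adjusted p = 0.0141) without mutant replicate 3. The C-type lectin gene cd209 had 9.73, 7.96 and 4.05 CPM in mutant ovary and 0.477, 0.585 and 1.22 CPM in wild-type ovary, with log2 3.25 and 3.54 (adjusted p = 0.0188 and 0.0141), a call lost without wild-type replicates 1 or 2 (0.0534 and 0.0886). Both genes lost their calls with a block for replicate number, with and without mutant replicate 3. In ovaries alone cd209 lost its call in either fit, and cd28 only without mutant replicate 3. In the fit without mutant replicate 3, both calls were lost when wild-type replicate 2 was also left out. That of cd28 was lost there without wild-type replicate 3 too. The leukocyte list does not hold cd209, and cd28 was the 1 gene called among its 34 genes tested. Of all genes, 0.553% were called with 12 libraries and 0.484% without mutant replicate 3. The leukocyte list summed to 202, 234 and 280 CPM in mutant ovary and 197, 168 and 354 CPM in wild-type ovary. The invariant chain gene cd74a had 12.9, 22.4 and 43.8 CPM in mutant ovary and 50.7, 43.9 and 98.9 CPM in wild-type ovary, with every mutant ovary below every wild-type ovary and an adjusted p of 0.241 with 12 libraries and 0.137 without mutant replicate 3.

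The remaining named rises were in genes for a transporter, a mitochondrial protein and an enzyme. The ammonia transporter gene rhcg2a had 11.1, 14.4 and 16 CPM in mutant ovary and 1.29, 1.46 and 1.55 CPM in wild-type ovary, with log2 3.26 and 3.14 without mutant replicate 3 (edgeR, adjusted p = 0.0206 and 0.0401). The gene spata18, whose mammalian product takes part in mitochondrial quality control, had 49.8, 80 and 45.9 CPM in mutant ovary and 13.3, 5.33 and 3.66 CPM in wild-type ovary, with log2 2.97 and 3.11 (adjusted p = 0.0135 and 0.0176). The aminopeptidase N gene anpepb had 4.25, 10.9 and 69.9 CPM in mutant ovary and 0.545, 0.439 and 0.163 CPM in wild-type ovary. Mutant replicate 3 was the highest, and this brush border enzyme is also an intestine marker, a list whose sum was 15.5, 25.3 and 2140 CPM in mutant ovary and 11.9, 15.1 and 8.47 CPM in wild-type ovary. Without that replicate anpepb still rose, by log2 4.26 ± 0.60 (adjusted p = 0.0157), against 6.17 ± 1.01 (adjusted p = 0.0203) with it. Among single libraries left out of the 12, wild-type replicate 2 ended the call for all 3 genes, with adjusted p of 0.0925 for rhcg2a, 0.0665 for spata18 and 0.0987 for anpepb. Wild-type replicates 1 and 3 did so for rhcg2a (0.0586 and 0.0714) and anpepb (0.0557 and 0.0808). In ovaries alone spata18 and anpepb lost their calls with and without mutant replicate 3, and rhcg2a only without it. A block for replicate number ended the calls of rhcg2a and anpepb in both fits, and that of spata18 only without mutant replicate 3. Without mutant replicate 3, all 3 calls were lost when wild-type replicate 2 was also left out. That of rhcg2a was lost there without wild-type replicates 1 or 3 too.

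Among named genes called in both fits and averaging 5 CPM or more in wild-type ovary, the largest falls were in hmcn2 and ryr2a. The ryanodine receptor gene ryr2a, for a calcium release channel of internal stores, had 3.1, 2.02 and 5.42 CPM in mutant ovary and 33.1, 101 and 106 CPM in wild-type ovary. No mutant ovary came near the wild types, and the log2 difference was -4.52 ± 0.61 (SE; edgeR, adjusted p = 0.0111), or -4.99 ± 0.71 (adjusted p = 0.0157) without mutant replicate 3. The hemicentin gene hmcn2, for a large protein of the extracellular matrix, had 1.06, 1.29 and 1.07 CPM in mutant ovary and 42.1, 34.4 and 26.7 CPM in wild-type ovary. The 3 mutant ovaries were close to each other and far below every wild type, with log2 -4.90 ± 0.38 (adjusted p = 0.000104) and -4.86 ± 0.45 (adjusted p = 0.000914), and hmcn2 was called under all 29 alternatives with a highest adjusted p of 0.0392. Both calls remained when any single ovary was left out of the 12 libraries. Without mutant replicate 3, that of ryr2a was lost in a fit of the ovaries alone and in a fit with a block for replicate number.

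Falls were also called in shc3, grip1, tmed1b, gc3, dock8, slc2a11a and nit1. The Shc adaptor gene shc3 had 0.62, 0.796 and 1.22 CPM in mutant ovary and 14.7, 16.4 and 7.33 CPM in wild-type ovary (log2 -3.85 and -4.17 without mutant replicate 3, edgeR adjusted p = 0.0111 and 0.0188). The scaffold gene grip1, first known from binding glutamate receptors, had 10.3, 9.92 and 3.67 CPM in mutant ovary and 53.1, 41.9 and 84.5 CPM in wild-type ovary (log2 -2.90 and -2.57, adjusted p = 0.0155 and 0.0209). The p24 family cargo receptor gene tmed1b had 1.5, 0.429 and 1.68 CPM in mutant ovary and 18, 20.5 and 19.8 CPM in wild-type ovary (log2 -4.02 and -4.37, adjusted p = 0.0135 and 0.0228). The calls of these 3 genes did not depend on any single ovary among the 12 libraries, and neither did that of gc3, a guanylyl cyclase gene with 3.63, 3.61 and 2.6 CPM in mutant ovary and 21.1, 14.2 and 8.47 CPM in wild-type ovary (log2 -2.15 and -2.02, adjusted p = 0.0127 and 0.0328). In the fit without mutant replicate 3, the calls of shc3, tmed1b and gc3 were lost when wild-type replicate 2 was also left out. Those of grip1 and tmed1b were lost there when wild-type replicate 3 was left out. None of the calls of shc3, grip1, tmed1b and gc3 held in fits of the ovaries alone, with or without mutant replicate 3. With a block for replicate number, these genes all lost their calls without mutant replicate 3. Those of shc3 and grip1 were lost with such a block in the 12 libraries too. Leaving out a further mutant ovary leaves 1 mutant library, and calls lost in such fits are not listed by gene. The gene dock8, for an exchange factor of Cdc42, had 5.66, 7.72 and 7.48 CPM in mutant ovary and 35.7, 58 and 18.2 CPM in wild-type ovary (log2 -2.42 and -2.48, adjusted p = 0.0162 and 0.0388), and its call was lost without wild-type replicate 2 (0.0555). The hexose transporter family gene slc2a11a had 1.24, 0.367 and 0.153 CPM in mutant ovary and 10.6, 10.3 and 4.64 CPM in wild-type ovary (log2 -3.89 and -3.45, adjusted p = 0.0203 and 0.0379), a call lost without mutant replicate 2 (0.0619) or wild-type replicate 2 (0.0676). In the fit without mutant replicate 3, dock8 and slc2a11a lost their calls when wild-type replicate 1 or 2 was also left out. In ovaries alone neither gene was called, with or without mutant replicate 3. The smallest of the 12 named falls was in nit1, a nitrilase family gene with 6.64, 6.49 and 8.25 CPM in mutant ovary and 17.9, 22.6 and 16.5 CPM in wild-type ovary (log2 -1.41 and -1.54, adjusted p = 0.0324 and 0.0439). The nit1 call was lost without any 1 of the other 5 ovaries, at 0.0518 to 0.115, and held without mutant replicate 3.

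A pair of bloodthirsty-related genes, members of the tripartite motif family, fell as well. The gene btr22 had 0.177, 0.429 and 0.611 CPM in mutant ovary and 4.91, 10.2 and 8.47 CPM in wild-type ovary (log2 -4.23 and -4.62 without mutant replicate 3, edgeR adjusted p = 0.0155 and 0.028). The gene btr26 had 0.62, 0.674 and 0.687 CPM in mutant ovary and 4.91, 7.31 and 6.59 CPM in wild-type ovary (log2 -3.23 and -3.27, adjusted p = 0.0174 and 0.0434). These were the 2 genes called among 18 btr genes tested with 12 libraries and 19 without mutant replicate 3, beside 0.553% and 0.484% of all genes. The list as a whole had a median log2 of 0.09 with 12 libraries and -0.08 without that replicate, so its sign differed between the fits. Members resemble each other in sequence, and how the deposited estimates divide reads among them is uncertain. Leaving out wild-type replicate 2 ended both calls (0.0555 for btr22 and 0.0622 for btr26), and leaving out mutant replicate 2 ended that of btr26 (0.0542). In ovaries alone neither gene was called, with or without mutant replicate 3. A block for replicate number ended the btr22 call in both fits and that of btr26 only without mutant replicate 3. In the fit without mutant replicate 3, both calls were lost when wild-type replicate 2 or 3 was also left out.

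**Figure D4:**
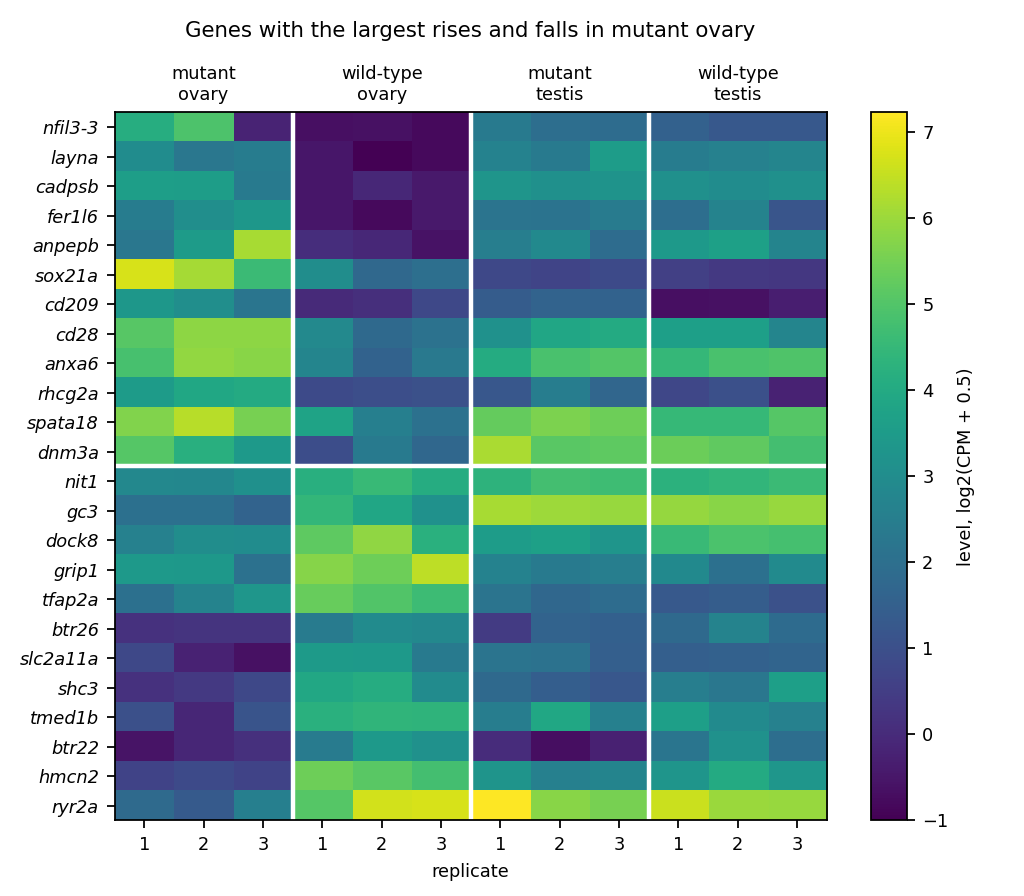
Level (colour, log2(CPM + 0.5)) of the 12 largest named rises, above the white line, and the 12 named falls, below it, in each gonad library. The mutant and wild-type ovaries differ throughout, and most of these genes have like levels in mutant and wild-type testis, with btr22 and cd209 the exceptions that passed the test there.

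Other genes called in both fits are named here after their values were seen. The actin scaffold gene iqgap2 had 36.3, 30.1 and 34.7 CPM in mutant ovary and 7.7, 6.14 and 4.8 CPM in wild-type ovary, a rise of log2 2.43 ± 0.23 (edgeR, adjusted p = 0.000709) and 2.41 (adjusted p = 0.00194) without mutant replicate 3. The relaxin family receptor gene rxfp2a, whose product is the receptor of the hormone Insl3 in mammals, had 34.5, 73.8 and 31.1 CPM in mutant ovary and 9.27, 17 and 15.1 CPM in wild-type ovary (log2 1.75 and 1.97, adjusted p = 0.0477 and 0.0328). The gene of that hormone, insl3, had 1.33, 0.612 and 0.382 CPM in mutant ovary and 6.27, 4.53 and 1.22 CPM in wild-type ovary, where the groups overlapped and the test was not passed (adjusted p = 0.136 and 0.266). The kinetochore gene cenpf had 68.8, 77.8 and 55.5 CPM in mutant ovary and 26.6, 30.3 and 26.9 CPM in wild-type ovary (log2 1.27 and 1.39, adjusted p = 0.013 and 0.0108). The kinase gene pim3 had 95.1, 114 and 80.9 CPM in mutant ovary and 53.8, 42 and 41.8 CPM in wild-type ovary (log2 1.08 and 1.18, adjusted p = 0.0353 and 0.0328). The iqgap2 call did not depend on any single ovary, but it was lost in a fit of the ovaries alone without mutant replicate 3. That of cenpf was lost without wild-type replicates 2 or 3 (0.0555 and 0.052). That of rxfp2a was lost without mutant replicate 2 (0.0805) and without wild-type replicates 1, 2 or 3 (0.101, 0.104 and 0.121). That of pim3 was lost without mutant replicates 1 or 2 (0.0634 and 0.0765) and without wild-type replicates 2 or 3 (0.14 and 0.125).

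Smaller named rises also included enzymes and cell adhesion genes. The cystathionine gamma-lyase gene cth had 32.3, 37.4 and 28.4 CPM in mutant ovary and 12.3, 9.65 and 12.1 CPM in wild-type ovary (log2 1.53 and 1.62 without mutant replicate 3, edgeR adjusted p = 0.0217 and 0.0328). The calpain protease gene capn1b had 18, 21.2 and 10 CPM in mutant ovary and 3.68, 1.83 and 1.95 CPM in wild-type ovary (log2 2.71 and 2.96, adjusted p = 0.0111 and 0.00499). The AMP deaminase gene ampd1 had 9.38, 13.3 and 7.03 CPM in mutant ovary and 1.91, 1.46 and 1.06 CPM in wild-type ovary (log2 2.74 and 2.93, adjusted p = 0.0155 and 0.0157). For these 3 enzymes the mutant ovaries all lay well above the wild types. The Dachsous cadherin gene dchs1b had 19.1, 39 and 13 CPM in mutant ovary and 5.25, 3.87 and 4.32 CPM in wild-type ovary (log2 2.40 and 2.69, adjusted p = 0.0284 and 0.0159). The peptidoglycan recognition gene pglyrp2 had 7.61, 14.7 and 12.6 CPM in mutant ovary and 2.25, 0.731 and 1.79 CPM in wild-type ovary (log2 2.87 and 2.80, adjusted p = 0.0174 and 0.0328). These 5 were likewise chosen after their values were seen.

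Of the 91 genes, 43 carry only a clone or locus name, and the most extreme values were among them. The highest fold among those with counts in both groups was in si:dkeyp-98a7.4, with 630, 324 and 440 CPM in mutant ovary and 1.43, 2.19 and 1.79 CPM in wild-type ovary (log2 8.00 ± 0.62 and 8.04 without mutant replicate 3, edgeR adjusted p = 0.000104 and 0.000158). Its next neighbour in gene order, si:dkeyp-98a7.7, had 85, 83 and 118 CPM in mutant ovary and 1.91, 1.24 and 1.06 CPM in wild-type ovary (log2 6.08 and 5.88, adjusted p = 0.000267 and 0.000914). The pair may share reads, and how the deposited estimates divide them is uncertain. In testis both were at or near 0 in either genotype, with no library above 0.224 CPM. The gene zgc:165453 had 2066, 2755 and 1554 CPM in mutant ovary and 84.6, 68.5 and 75 CPM in wild-type ovary (log2 4.80 ± 0.34 and 4.98, adjusted p = 0.000101 and 6.45e-05). Falls of like size were seen in si:ch73-47f2.1, with 0.708, 0.674 and 1.15 CPM in mutant ovary and 51.9, 30.5 and 34.4 CPM in wild-type ovary (log2 -5.52 and -5.81, adjusted p = 0.000101 and 0.00019), and in si:ch73-299h12.8, with 0.354, 0.429 and 0.458 CPM in mutant ovary and 31.4, 27.5 and 21.6 CPM in wild-type ovary (log2 -5.99 and -6.07, adjusted p = 0.000104 and 0.000994). All but si:dkeyp-98a7.7 of these 5 were called under all 29 alternatives.

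Some genes had no counts at all in 1 genotype. The neuropeptide FF receptor gene npffr2a had 0 CPM in all 3 mutant ovaries and 2.25, 1.9 and 3.34 CPM in the wild-type ovaries, at least 33.4-fold lower in mutant ovary when 3 counts are allowed over the mutant group. The gene jakmip2 had 7.08, 2.88 and 4.12 CPM in the mutant ovaries and 0 in the wild-type ovaries, at least 60.2-fold higher with the same allowance in wild types. For LOC103909101 the mutant ovaries had 6.99, 4.35 and 3.74 CPM and the wild types 0, at least 66.2-fold higher. For LOC103909985 the mutants had 0 and the wild types 1.29, 3.07 and 3.42 CPM, at least 34.4-fold lower. These bounds cover counting error only, and all 4 genes were called in both fits and chosen after their values were seen.

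Gene lists of the ovary's own cells are given by their counts and medians. None of the 14 egg coat genes, 25 oocyte factors, 24 germ cell and piRNA genes or 24 meiosis genes tested was called in either fit. Of all genes, 0.553% were called with 12 libraries and 0.484% without mutant replicate 3, the shares to set beside this and the following list counts. Egg coat genes had a median log2 of 0.21 with 12 libraries and 0.15 without mutant replicate 3, oocyte factors 0.07 and 0.05, and meiosis genes 0.19 and 0.01, beside 0.05 and 0 over all genes. The germ cell and piRNA list had a median of 0.17 and 0.22, with 19 and 18 of its 24 genes above 0, and with scaling by library size alone the median was 0 with 12 libraries, where 12 genes were below 0. Its piRNA pathway gene tdrd1 had 280, 483 and 300 CPM in mutant ovary and 254, 173 and 175 CPM in wild-type ovary (edgeR adjusted p = 0.19 with 12 libraries and 0.2 without mutant replicate 3), and piwil1 had 193, 226 and 211 CPM in mutant ovary and 164, 111 and 124 CPM in wild-type ovary (adjusted p = 0.217 and 0.315). The mutants were above the wild types for both, and neither gene passed. The egg coat gene zp2.1 was high in a single wild type, with 40.1, 199 and 162 CPM in mutant ovary and 1695, 163 and 198 CPM in wild-type ovary.

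The follicle's somatic genes had medians below 0. The granulosa and support list had a median log2 of -0.43 with 12 libraries and -0.57 without mutant replicate 3, with 18 and 19 of its 26 genes below 0 and none called. Its summed level was 180, 126 and 217 CPM in mutant ovary and 214, 296 and 241 CPM in wild-type ovary, so the groups overlapped. Anti-Müllerian hormone gene amh had 1.24, 1.9 and 2.37 CPM in mutant ovary and 3.07, 5.26 and 4.23 CPM in wild-type ovary, with no overlap and no call (edgeR adjusted p = 0.14 and 0.143). The ovarian aromatase gene cyp19a1a, which makes estrogen, had 19.1 ± 15.2 CPM in mutant ovary and 50.7 ± 20.8 CPM in wild-type ovary (SD, n = 3 each), with overlap between the groups. The Kit ligand gene kitlga was on the other side, with 7.7, 5.88 and 9.01 CPM in mutant ovary and 2.32, 3.73 and 1.55 CPM in wild-type ovary (adjusted p = 0.0999 and 0.168).

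The list of steroid enzymes and of gonadotropin and steroid receptors had a median log2 of -0.19 with 12 libraries and -0.61 without mutant replicate 3, with 18 and 24 of 33 genes below 0. Only hsd17b3 was called, and only with 12 libraries. This gene, whose product reduces androstenedione to testosterone in mammals, had 8.41, 4.78 and 6.26 CPM in mutant ovary and 22.5, 20.7 and 19.1 CPM in wild-type ovary (log2 -1.68 ± 0.33, edgeR adjusted p = 0.0477). The groups did not overlap, but the adjusted p was 0.0912 without mutant replicate 3 and 0.05 to 0.129 without each of the 6 ovaries. The luteinizing hormone receptor gene lhcgr had 3.45, 1.41 and 2.44 CPM in mutant ovary and 9, 8.33 and 9.77 CPM in wild-type ovary (adjusted p = 0.137 and 0.211). The estradiol-forming enzyme gene hsd17b1 had 41.4 ± 8.79 CPM in mutant ovary and 63.5 ± 3.84 CPM in wild-type ovary (SD, n = 3 each; edgeR adjusted p = 0.237 and 0.195). For both genes every mutant ovary was below every wild-type ovary. On the other side hsd17b12a, for an enzyme of fatty acid elongation, had 343, 355 and 257 CPM in mutant ovary and 219, 230 and 177 CPM in wild-type ovary, above every wild type in each mutant and not called (log2 0.61 and 0.74, adjusted p = 0.226 and 0.195). In the whole list of 33 genes, 3 were higher in every mutant ovary than in any wild type, and 4 were lower. Over all genes tested, 8.16% lay wholly above and 7.16% wholly below, so neither count is read as a result about this list. The list as a whole summed to 2410, 2480 and 2360 CPM in mutant ovary and 2480, 2510 and 2330 CPM in wild-type ovary.

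Genes with roles in testis were also listed, since zebrafish gonads can take either fate. The testis somatic list had a median log2 of -0.46 with 12 libraries and -0.42 without mutant replicate 3, and none of its 14 genes was called. The sperm list had a median of 0.38 and 0.30, and spata18 was the 1 gene called of 27. Its sum was higher in each mutant ovary, at 132, 175 and 132 CPM, than in each wild-type ovary, at 114, 86.5 and 81.7 CPM. Of this, spata18 alone had 49.8, 80 and 45.9 CPM in the mutants and 13.3, 5.33 and 3.66 CPM in the wild types. Without the levels of spata18 the groups would overlap. The growth factor gene igf3 had 4.69, 2.51 and 2.98 CPM in mutant ovary and 16, 24.3 and 6.59 CPM in wild-type ovary, below the wild types in every mutant and not called (edgeR adjusted p = 0.126 and 0.22). In the list of ovulation genes none of 28 was called, with a median of 0.21 and 0.13.

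Matrix genes moved in both directions. Of 37 extracellular matrix genes tested, hmcn2 fell in both fits, and the fibronectin gene fn1a was called without mutant replicate 3 only. It had 133, 157 and 48.5 CPM in mutant ovary and 45.1, 29.3 and 20.6 CPM in wild-type ovary, with log2 1.83 (edgeR adjusted p = 0.108) with 12 libraries and 2.19 ± 0.39 (adjusted p = 0.0372) without that replicate. The gene fn1a lost this call in ovaries alone, with a block for replicate number, and without wild-type replicates 2 or 3. Its paralog fn1b had 290, 368 and 423 CPM in mutant ovary and 93.5, 124 and 76.4 CPM in wild-type ovary, also without overlap, and did not pass (log2 1.88 and 1.74, adjusted p = 0.182 and 0.273). The matrix list summed to 1580, 1110 and 1200 CPM in mutant ovary and 723, 923 and 888 CPM in wild-type ovary, with medians of 0.32 and 0.22. These sums include fn1a and fn1b, and without the levels of those genes the groups would overlap. The smooth muscle list was on the other side, with 13 of 15 genes below 0 in each fit, medians of -0.66 and -0.74 and no call. Its sums of 397, 72.4 and 279 CPM in mutant ovary and 314, 346 and 457 CPM in wild-type ovary overlapped, and acta2, for smooth muscle actin, had 102, 5.7 and 74.8 CPM in mutant ovary and 66.3, 95.4 and 150 CPM in wild-type ovary. Mutant replicate 2 was thus low in smooth muscle transcripts, and the part of muscle content in the other differences was not tested.

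The interferon response list had a higher median with mutant replicate 3 than without it. It had a median log2 of 1.03 with 12 libraries, with 28 of 33 genes above 0, and of 0.27 without mutant replicate 3, with 22 above 0. Its sum was 266, 290 and 583 CPM in mutant ovary and 219, 187 and 217 CPM in wild-type ovary, so each mutant was above each wild type and replicate 3 was the highest. The interferon regulatory factor gene irf7 had 15.4, 25.5 and 26.3 CPM in mutant ovary and 2.79, 2.48 and 2.04 CPM in wild-type ovary, and it rose by log2 3.19 ± 0.63 with 12 libraries (edgeR, adjusted p = 0.0492). Without mutant replicate 3 irf7 had log2 3.05 with an adjusted p of 0.0819, and without each of the 6 ovaries its adjusted p was 0.055 to 0.171. The peptide transporter gene tap1, which loads MHC class I, had 18.8, 26 and 17.7 CPM in mutant ovary and 9.88, 8.7 and 9.53 CPM in wild-type ovary and did not pass (adjusted p = 0.119 and 0.13).

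Genes of the ribosome, the respiratory chain and the proteasome had narrow spreads and medians below 0. Of 79 ribosomal protein genes, 54 were below 0 with 12 libraries, with a median log2 of -0.07, and 78 without mutant replicate 3, with a median of -0.48. Their summed share of the library was 1.82%, 1.73% and 3.11% in mutant ovary and 2.41%, 2.72% and 2.91% in wild-type ovary, so replicate 3 was the highest of all and the other mutants the lowest. Of 82 respiratory chain genes, 67 and 68 were below 0, with medians of -0.21 and -0.35. Of 43 proteasome genes, 36 and 39 were below 0, with medians of -0.18 and -0.27. No gene of these 3 lists was called. The proteasome list summed to 4470, 4550 and 4700 CPM in mutant ovary and 4720, 5230 and 5590 CPM in wild-type ovary, with no overlap. Respiratory chain sums did overlap, at 8570, 9200 and 10100 CPM in mutant ovary and 9920, 10800 and 11400 CPM in wild-type ovary.

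**Figure D5:**
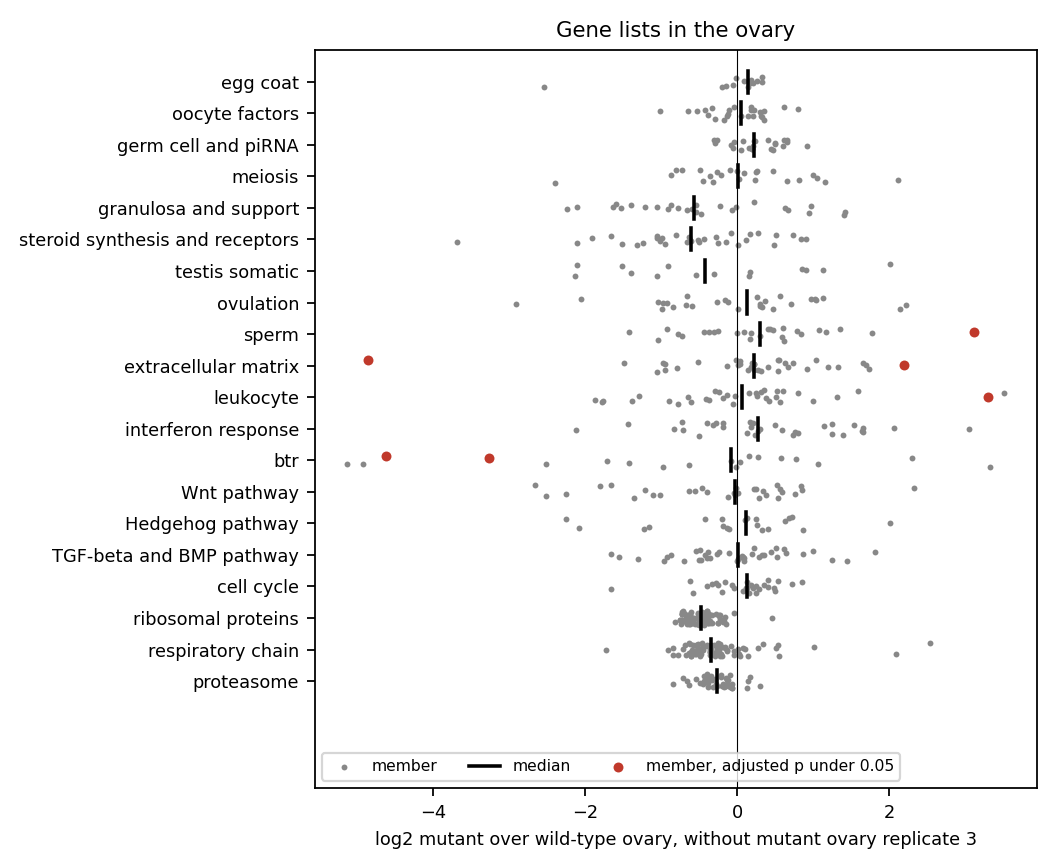
Log2 mutant over wild-type ovary without mutant replicate 3 (x axis) for the tested members of 20 gene lists (points), with the median of each list (bar) and members with an adjusted p under 0.05 in red. The red points are spata18, hmcn2, fn1a, cd28, btr22 and btr26, and the ribosomal protein genes lie in a narrow band with a median of -0.48.

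Signalling pathways of follicle growth held no call, where 0.553% of all genes were called with 12 libraries and 0.484% without mutant replicate 3. At such shares the absence of calls says little about lists of this size. The Wnt list had 31 genes tested and medians of -0.06 and -0.03, the Hedgehog list 20 genes and medians of 0.27 and 0.11, and the list of TGF-beta and BMP genes 0.06 and 0.02. The inhibitory Smad gene smad7 had 3.19, 1.41 and 2.37 CPM in mutant ovary and 5.11, 10.3 and 4.72 CPM in wild-type ovary, with every mutant below every wild type (edgeR adjusted p = 0.132 and 0.2). Among 30 cell cycle genes none was called, with medians of 0.08 and 0.13. Scaling by library size alone moved the median of all genes to -0.10 with 12 libraries and -0.11 without mutant replicate 3, and the list medians moved with it. The sign of the median then turned in at least 1 fit for oocyte factors, meiosis, leukocyte, btr, Hedgehog, TGF-beta and BMP, and cell cycle genes. It did not turn for the granulosa, steroid, testis somatic, sperm, matrix, interferon, smooth muscle, ribosomal, respiratory chain and proteasome lists. The germ cell and piRNA and the ovulation list each came to 0 in 1 fit.

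Testis of the same genotypes showed fewer calls. In the fit without mutant ovary replicate 3, 24 genes were called in testis, 0.0907% of 26460, and 4 of them were among the 128 called in ovary. They were btr22, cd209, LOC100535918 and LOC103909985, each with the same direction in both gonads, which is 3.12% of the ovary calls and 16.7% of the testis calls. The testis levels of btr22 were 0.536, 0.121 and 0.349 CPM in mutants and 4.08, 8.39 and 3.43 CPM in wild types (log2 -3.96, edgeR adjusted p = 0.0481 in the 12-library fit). Those of cd209 were 2.1, 2.59 and 2.48 CPM in mutants and 0.138, 0.145 and 0.312 CPM in wild types (log2 3.54, adjusted p = 0.0481). The gene LOC100535918 had 0, 0.184 and 0.229 CPM in mutant ovary and 6, 3.73 and 10.3 CPM in wild-type ovary, and 2.41, 3.16 and 4.85 CPM in mutant testis and 34, 97.4 and 142 CPM in wild-type testis. It was lower in both mutant gonads, and its levels were higher in testis than in ovary in each genotype.

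The difference between the ovary effect and the testis effect was tested as an interaction. It called 23 genes without mutant ovary replicate 3, 0.0869% of those tested, and 21 with all 12 libraries, 0.0812%. For tfap2a the testis levels were 4.02, 2.83 and 3.26 CPM in mutants and 1.97, 2.18 and 1.56 CPM in wild types, above the wild types in every mutant, with a log2 of 0.82 that did not pass (edgeR adjusted p = 0.702). The ovary effect minus the testis effect on tfap2a was -3.56 ± 0.49 (adjusted p = 0.0212) without mutant ovary replicate 3 and -3.15 (adjusted p = 0.0665) with it. For cadpsb the testis levels were 9.21, 8.3 and 8.92 CPM in mutants and 8.26, 7.56 and 8.29 CPM in wild types, and the difference of effects was 5.15 ± 0.48 (adjusted p = 0.00207). For hmcn2 the testis levels were 9.03, 5.55 and 6.09 CPM in mutants and 9.31, 15.8 and 9.54 CPM in wild types, and the difference was -4.11 ± 0.52 (adjusted p = 0.0138). The ovary effects of both were thus larger than the testis effects, with the interaction also called for both when all 12 libraries were used (adjusted p = 0.0116 and 0.00531).

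Mutant embryos at 10 somites were compared with uninjected wild-type embryos in a fit of all 21 embryo libraries, in which 4.09% of 22305 genes were called. That fit also held the injected wild-type embryos, so its estimate of the spread includes them. Of the 109 genes called in ovary without mutant replicate 3 and tested in embryos, 11 were also called there, or 10.1%, and they were 1.25% of the embryo calls among genes tested in both. The direction was shared by 7 of the 11. Among these rxfp2a was higher in mutant embryos by log2 3.65 (edgeR, adjusted p = 4.07e-05), zgc:165453 by 2.1 (adjusted p = 0.00825) and cd28 by 1.48 (adjusted p = 0.0391), and dock8 was lower, at -2.95 (adjusted p = 0.0121). The opposite direction was seen in anxa6, dchs1b, iqgap2 and layna, which rose in mutant ovary and were lower in mutant embryos, at log2 -1.15, -1.11, -0.72 and -2.06. Both LOC100535918 and LOC103909985 were lower in mutants in ovary, testis and embryo, with embryo log2 values of -2.23 (adjusted p = 0.00035) and -8.41 (adjusted p = 0.00303). In contrast tfap2a did not pass in embryos, with log2 0.48 (adjusted p = 0.179).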

How the data were processed

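Per the labels' protocols, RNA was extracted with TRIzol and 100 ng was made into stranded poly(A) libraries. Per the submitters' processing notes, Trimmomatic 0.36, kallisto 0.43.0 and edgeR were used with GRCz10. The deposited gene table holds estimated counts of 30490 genes (100% of its values above 0 are not whole numbers), and a second deposited table holds estimated counts of 54435 transcripts. A table of CPM scaled by the authors was not used.

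Gene counts were rounded to whole numbers. The tool was edgeR 4.0.16 (R 4.3.3), with TMM scaling (factors of 0.65 to 0.79 in ovaries and 1.35 to 1.40 in testes), its default low-count filter (minimum count 10, total 15) and robust quasi-likelihood tests, two-sided at 0.05 after Benjamini-Hochberg adjustment over every gene in a fit. One fit held the 12 gonad libraries in 4 groups (biological coefficient of variation 0.429, 8 residual degrees of freedom). Another held the 11 without mutant ovary replicate 3 (0.387 and 7). The embryo fit held the 21 embryo libraries, injected ones included (0.241). CPM values are from the 12-library fit, and list levels are sums of them. Called means an adjusted p under 0.05, and SE is the standard error of a log2 difference. A gene at 0 in a group was allowed 3 counts over the group. Ovary depth was 15295665 to 24131756 counts. The fits were tested on simulated counts, where 53% of genes given a log2 change of 2 were recovered in either fit. For a change of 4, the share was 92% with 12 libraries and 79% without mutant ovary replicate 3. A gene that was not called may therefore still differ.

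Comparisons, gene lists and the genes named were chosen with earlier results of these data known. Named genes were the kctd15 and tfap2 genes, up to 12 rises and 12 falls with the largest log2 among named genes called the same way in both fits (without overlap, and averaging 5 CPM or more where higher), the 4 lowest-p members in any of 38 lists, other-tissue markers highest in mutant ovary replicate 3, and genes of the interaction. A gene outside this rule is said to be chosen after its values were seen, or is a list member given as an example of its role. Alternatives were RLE or library-size scaling, other filters, DESeq2 1.42.0, limma-trend (limma 3.58.1) on log2(CPM + 0.5), ovaries only, a replicate block, removal of other-tissue genes, and each ovary left out. Names are those of the deposited table. Gene order came from a table of another assembly, so no positions are given.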

Additional observations from a re-analysis of the deposited data

Results flagged for a closer look

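The interaction test called 23 genes, and the 14 of them described in the text are given here. For these 14 the difference between mutant and wild type was not the same in ovary and testis by the interaction test (edgeR without mutant ovary replicate 3, adjusted p under 0.05). The values here are the ovary log2 difference minus the testis log2 difference. The ovary effect was above the testis effect by 6.66 (adjusted p = 0.00178) for nfil3-3, 5.16 (0.0383) for anpepb, 5.15 (0.00207) for cadpsb, 4.97 (0.0497) for fer1l6 and 4.73 (0.00178) for zgc:165453. It was above by 3.71 (0.0396) for sox21a, 2.99 (0.00692) for iqgap2 and 1.85 (0.0176) for cenpf. It was below the testis effect for si:ch73-299h12.8, at -6.03 (adjusted p = 0.00557), si:ch73-47f2.1, at -5.1 (0.00425), hmcn2, at -4.11 (0.0138), and tfap2a, at -3.56 (0.0212).

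With all 12 libraries the interaction did not pass for anpepb (adjusted p = 0.093), fn1a (0.0902), nfil3-3 (0.225), sox21a (0.173) and tfap2a (0.0665), and it passed for the other 9 genes.

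The ovary and testis effects had opposite signs for anpepb, cenpf, fn1a, iqgap2, ppp1r32 and tfap2a. The testis effects of anpepb, cenpf, fn1a, iqgap2 and tfap2a did not pass in edgeR's 12-library fit (adjusted p = 0.264 to 0.949). Their signs are therefore not read as opposite responses of the gonads. The interaction for fn1a was 4.02 ± 0.529 (SE, adjusted p = 0.0176), with an ovary log2 of 2.19 and a testis log2 of -1.83. For ppp1r32 it was 9.89 ± 1.32 (SE, adjusted p = 0.0176). That value came from testis, where ppp1r32 had 0.358, 0.121 and 0.272 CPM in mutants and 72.9, 62.9 and 37.1 CPM in wild types, while it had 0.443, 0.0612 and 0.153 CPM in mutant ovary and 0, 0.0731 and 0.0814 CPM in wild-type ovary and did not pass there (adjusted p = 0.449).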

How the results depend on the processing

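With 12 libraries, 143 genes were called by edgeR's quasi-likelihood test. DESeq2 called 1058, 138 of the 143 among them, and ovaries alone gave 23. Leaving out each ovary gave 33 to 142. Without mutant replicate 3 the count was 128, for which DESeq2 gave 963, limma-trend 217 and ovaries alone 9, and leaving out a further ovary gave 43 to 206. The interaction called 21 genes, and 12 with library-size scaling, 12 with a minimum of 1 CPM in 3 libraries, 394 with DESeq2, 53 with limma-trend and 10 to 23 with each ovary left out. Library-size scaling kept the ovary count at 140 but turned its split to 66 higher and 74 lower, beside 90 and 53, and without mutant replicate 3 to 68 and 55, beside 83 and 45. Other scalings and filters, and removal of other-tissue genes, kept the ovary counts within 1.5 times. The causes were not tested.

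Deviations of equally numbered ovaries from their group means correlated at 0.061, 0.047 and -0.043. The mutant mean includes replicate 3, so these values do not settle whether replicate numbers pair the ovaries. The main fits took the ovaries as unpaired. A fit with a replicate block within tissue called 61 genes (46 of the 143) with 12 libraries, 17 without mutant replicate 3 and 11 in the interaction.

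Of 642 values of 43 named or listed genes under alternatives of the 12-library fit, 540 stayed on their side of the threshold, 99 lost the call, 3 gained it and 0 turned sign. Of 600 without mutant replicate 3, 486 stayed, 110 lost it, 4 gained it and 0 turned sign. The 43 genes did not include cyb5r2 or onecutl, nor any gene of the hepatocyte and vitellogenin lists. Both genes and most members of those lists changed sign when mutant replicate 3 was left out. The absence of sign changes therefore holds for the 43 genes only. Depth limits the folds of low genes, since a gene at 0 in a group gives only a bound.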

Other observations

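In gene order, none of the 100 nearest tested genes of either kctd15 gene was called in edgeR's quasi-likelihood test in either fit. Only 70.4% of the tested genes matched the gene-order table, under the share needed, so this check is void. Of the 59 matched genes called in both fits, 6 lay within 5 genes of another, as pairs: cd28 with fer1l6, LOC100329818 with zgc:171497, and si:dkeyp-98a7.4 with si:dkeyp-98a7.7. The same incomplete gene order was used, and the share of all matched genes so placed was not computed. No clustering of called genes is therefore inferred. The members of each pair rose in mutant ovary, and all 6 genes did so with and without mutant replicate 3.

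Several lists of other cell types in the ovary held no call in either fit. Of all genes, 0.553% were called with 12 libraries and 0.484% without mutant replicate 3. Endothelial genes had a median log2 of 0.21 with 12 libraries and 0.14 without mutant replicate 3 over 16 genes. Erythrocyte genes had -0.06 and -0.63 over 13 genes, and skeletal muscle genes 0.52 and 0.10 over 18. Adipocyte genes had 1.13 and 0, and summed to 509, 90.9 and 1540 CPM in mutant ovary and 336, 151 and 188 CPM in wild-type ovary. Surface epithelium genes had 0.18 and -0.02 over 21 genes, MHC class I genes -0.1 and -0.31 over 8, heat shock genes 0.15 and 0.13 over 23, and p53 targets 0.06 and 0.04 over 18. Cholesterol synthesis genes had 0.34 and -0.02 over 23 genes. Endocrine pancreas genes had 0.04 and 0.23 over 13 genes. With scaling by library size alone the median turned below 0 in at least 1 fit for skeletal muscle, heat shock, p53 target and endocrine pancreas genes, and the adipocyte median without mutant replicate 3 moved to -0.12. Without mutant replicate 3 the hepatocyte list had a median of -2.33, with 33 of 38 genes below 0, and the vitellogenin list -6.9, with 7 of 7 below 0, and wild-type replicate 1 was the highest wild type in both.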
